A study of Mus musculus with 8 samples.

Results

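The 8 genes of interleukin-1, tumour necrosis factor and NF-kB feedback signalling considered here were Il1a, Il1b, Tnf, Nlrp3, Casp4, Nfkbia, Nfkbiz and Tnfaip3. They were chosen by name, with earlier results of these data known, and followed through a single-cell RNA-seq table of the mouse hippocampus. All 8 were among its 17143 genes. They were summed per mouse in each marker-defined cell class, and mice exposed to lead (Pb) were compared with control mice (Ctl). The table holds unique molecular identifiers (UMIs, which count transcript molecules) in droplet-captured cells.

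The Pb group was 2 females and 2 males aged 5 months, a/a wildtype offspring of dams that drank water with 32 ppm Pb-acetate. The dams had it from 2 weeks before mating through gestation and lactation, and the offspring then had lead-free water. The Ctl group was 2 females and 2 males of the same genotype and age from dams without lead. In the text, Pb F1 stands for the first Pb female, and the others are named likewise. The labels say that 1 male and 1 female per litter were kept, but they do not tie mice to litters, so mice treated here as independent may share a dam. The brains were perfused, the hippocampus was digested with heating, and the cells were frozen and thawed before loading.

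After filtering, 5175 cells remained, 471 to 1157 per Pb mouse and 211 to 567 per Ctl mouse. The labels gave a target of 3000 to 5000 cells per sample. Kept UMIs per mouse ranged from 1749079 to 8508064. A cell barcode found in another library was carried by 91 of the 5258 deposited cells, and every one of the 28 pairs of libraries shared 2 to 10 barcodes, so the fits were repeated without those cells. Microglia-like cells (microglia are the resident macrophages of brain tissue) numbered 133 to 302 per Pb mouse and 60 to 147 per Ctl mouse, 1290 in all, and their clusters had all 19 microglia markers detected. Between groups, 8 classes were tested. One of them, called cluster 10 (616 cells), was led by hemoglobin genes while 24 of 25 endothelial markers were also detected, and it was left without a cell type name.

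As background, interleukin-1 alpha (Il1a), interleukin-1 beta (Il1b) and tumour necrosis factor (Tnf) are cytokines that signal through their receptors to the transcription factor NF-kB. Nlrp3 is the sensor of the inflammasome that activates caspase-1 to process interleukin-1 beta, and Casp4 (caspase-11 in the mouse) senses cytosolic lipopolysaccharide. NF-kB in turn induces its own regulators: Nfkbia (the inhibitor I-kappa-B-alpha, which holds NF-kB in the cytoplasm), Nfkbiz (a nuclear I-kappa-B protein) and Tnfaip3 (A20, a ubiquitin-editing enzyme that shuts off the signal). In brain tissue microglia are a main source of these cytokines, and enzymatic dissociation is known to induce such genes in microglia.

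In GRCm38 (GENCODE vM21), Il1a lies on chromosome 2 at 129299610 to 129309972, and Il1b on the same chromosome at 129364570 to 129371139, both on the minus strand. Tnf lies on chromosome 17 at 35199381 to 35202007, Nfkbia on chromosome 12 at 55489410 to 55492647, Nfkbiz on chromosome 16 at 55811375 to 55838899 and Tnfaip3 on chromosome 10 at 19000910 to 19015657, all on the minus strand. Nlrp3 (chromosome 11, 59541568 to 59566956) and Casp4 (chromosome 9, 5308828 to 5336783) lie on the plus strand. Il1a overlaps Gm14023 and Il1b overlaps Il1bos, each on the opposite strand, and no source used here says whether counting kept the strand.

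The promoter windows of the members (250 bases before to 50 after a start, RefSeq, GRCm38.p6) are shown for 2 cytokines largely held by microglia and for 2 feedback genes, since NF-kB is known to induce both kinds of gene. Capitals mark matches to 4 motifs: the NF-kB pattern GGNNTTTCC, the AP-1 pattern TGANTCA and the CRE core TGACGT on both strands, and the TATA box TATAAA on the gene's strand. Sequences run 5′ to 3′ on the gene's minus strand.
Il1a, chr2:129309923-129310222: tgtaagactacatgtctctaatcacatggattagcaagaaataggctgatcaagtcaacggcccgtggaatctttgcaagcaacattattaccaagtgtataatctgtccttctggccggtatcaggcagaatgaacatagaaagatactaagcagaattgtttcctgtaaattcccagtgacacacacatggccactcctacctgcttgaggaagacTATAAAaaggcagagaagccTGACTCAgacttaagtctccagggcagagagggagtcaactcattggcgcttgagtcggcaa
Tnf, chr17:35201958-35202257: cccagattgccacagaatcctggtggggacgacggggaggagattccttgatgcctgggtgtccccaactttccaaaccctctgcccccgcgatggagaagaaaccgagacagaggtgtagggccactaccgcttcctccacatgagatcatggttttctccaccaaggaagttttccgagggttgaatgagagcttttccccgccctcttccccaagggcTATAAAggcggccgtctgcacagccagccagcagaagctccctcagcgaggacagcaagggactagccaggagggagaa
Nfkbia, chr12:55492598-55492897: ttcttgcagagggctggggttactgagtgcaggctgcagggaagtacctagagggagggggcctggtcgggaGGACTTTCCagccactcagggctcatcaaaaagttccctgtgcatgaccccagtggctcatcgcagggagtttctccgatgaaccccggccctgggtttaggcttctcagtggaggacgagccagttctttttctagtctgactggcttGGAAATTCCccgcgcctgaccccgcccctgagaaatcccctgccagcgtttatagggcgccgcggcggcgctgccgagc
Tnfaip3, chr10:19015361-19015660: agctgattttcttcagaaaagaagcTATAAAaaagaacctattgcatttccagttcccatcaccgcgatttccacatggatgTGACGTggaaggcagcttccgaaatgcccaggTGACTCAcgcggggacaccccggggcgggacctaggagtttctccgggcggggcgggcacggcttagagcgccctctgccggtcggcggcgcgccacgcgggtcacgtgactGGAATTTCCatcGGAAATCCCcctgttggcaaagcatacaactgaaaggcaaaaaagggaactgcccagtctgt

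Il1a, Il1b and Tnf each held a TATA box, beginning 32, 31 and 29 bases before the start, and none of the 3 held the NF-kB pattern in this spelling. Nfkbia held the NF-kB pattern in 2 places, Tnfaip3 in 2 places 24 and 12 bases before the start of its first window, and Casp4 in 2 places in each of its 2 windows, which overlap each other. Nlrp3 held it once in each of its 2 windows. The AP-1 pattern was found in Il1a and Tnfaip3, and the CRE core in Tnfaip3, whose first window also held a TATA box far from its start. Over all 32851 promoter windows of this length, 5.82% held the NF-kB pattern, 7.81% the AP-1 pattern, 7.51% the CRE core and 8.32% the TATA box. These are matches of letters, not measured sites. Windows were matched for 7 of the 8 members; Nfkbiz was not matched.

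Most transcripts of 7 of the 8 members lay in Microglia-like cells. These cells, 1290 of 5175, carried 80.7% of the UMIs of Il1a, 77.3% of Tnf, 71.9% of Nlrp3, 80.9% of Casp4 and 77.3% of Tnfaip3. The share was 62.1% for Il1b, 59.9% for Nfkbiz and 47.4% for Nfkbia. Their level in microglia, in CPM (UMIs of the gene as a share of all UMIs of the class, mean ± SD over 8 mice), was 2686 ± 406 for Nfkbia, 1180 ± 266 for Il1a, 605 ± 102 for Nfkbiz, 531 ± 111 for Tnf, 457 ± 108 for Tnfaip3, 281 ± 88.8 for Il1b, 195 ± 50.1 for Nlrp3 and 185 ± 41.6 for Casp4. UMIs tag one end of a transcript, so this order is of tagged molecules and not scaled by gene length. Neighbours from Nfkbiz down to Tnfaip3, and from Il1b down to Casp4, lay within 1 SD of each other.

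Il1b was the exception among the cytokines. In Perivascular macrophage-like cells (macrophages along brain vessels, here 73 cells) it stood at 2183 CPM in Pb M1, 1459 CPM in Pb F1 and 1615 CPM in Ctl F2, the 3 mice with at least 10 such cells. All 3 values were above the highest Microglia-like value of any mouse, 379 CPM. The mean was 623% of the microglial level, and these 73 cells carried 19.1% of all Il1b UMIs. Nlrp3 was also at 160% of the microglial level there, with 312 ± 47.5 CPM (SD, n = 3). Il1a (39.6%), Tnf (42.1%), Nfkbia (54.7%), Tnfaip3 (58.1%), Casp4 (69.7%) and Nfkbiz (88.6%) were at lower levels than in microglia. With the inflammatory lists left out of the clustering, 16 of the cells of this kind formed a separate B cell-like cluster. Summed markers of monocytes and neutrophils in this class were 6261 to 14150 CPM in Pb mice and 7450 CPM in Ctl F2. Markers of perivascular macrophages summed to 34310 to 34710 CPM in Pb mice and 22710 CPM in Ctl F2. The part of other myeloid or B cells in the Il1b level was not tested. Too few mice held enough of these cells to compare Pb with Ctl.

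**Figure D1:**
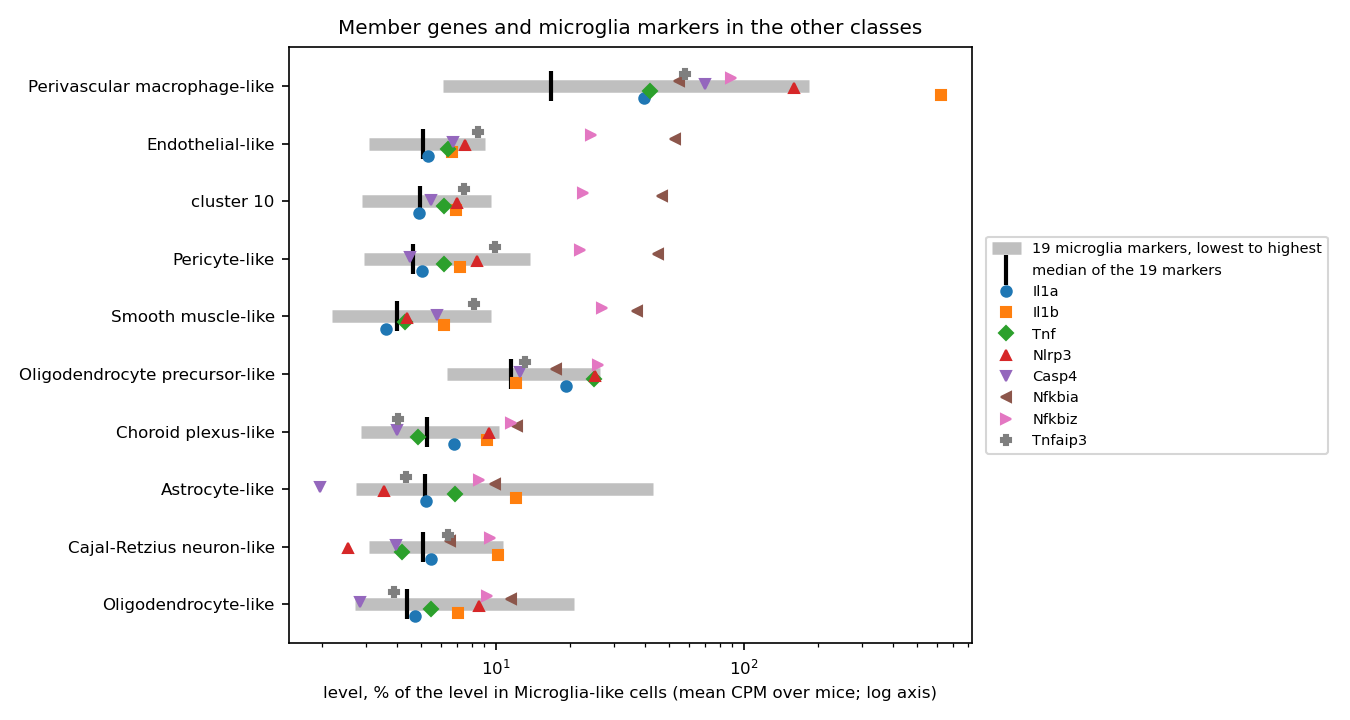
Level of each member in 10 other classes as a percentage of its level in Microglia-like cells (mean CPM over mice with at least 10 cells, log axis), with the range (grey) and median (black tick) of 19 microglia markers in the same class. Il1b stands at 623% in Perivascular macrophage-like cells, and Nfkbia and Nfkbiz lie to the right of the markers in the 4 vascular classes, where Il1a, Tnf, Nlrp3 and Casp4 lie among them.

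In the larger non-immune classes, Il1a, Tnf, Nlrp3 and Casp4 stood near the share at which microglia markers in general were read. In Oligodendrocyte-like cells (the myelin-forming cells) Il1a was at 4.74% of its microglial level, Tnf at 5.50%, Nlrp3 at 8.53% and Casp4 at 2.82%. The 19 microglia markers had a median of 4.41% there and a range of 2.71% to 20.7%. In Endothelial-like cells Il1a was at 5.32%, Tnf at 6.40%, Nlrp3 at 7.51% and Casp4 at 6.74%, beside a marker median of 5.08% and a marker range of 3.08% to 9.04%. In Astrocyte-like cells Il1a was at 5.22%, Tnf at 6.83%, Nlrp3 at 3.56% and Casp4 at 1.96%. The markers had a median of 5.17% there and a range of 2.74% to 43.2%, so Casp4 was below the lowest marker. Il1b was somewhat above the marker median in the same 3 classes, at 7.03%, 6.66% and 12.1%. At 2000 UMIs per cell, Il1a was seen in 67.7% of Microglia-like cells (95% Wilson interval 65.1 to 70.2%), against 12.6% of Oligodendrocyte-like cells (10.9 to 14.5%) and 12.9% of Endothelial-like cells (10.5 to 15.6%). These intervals cover counting error only. Values of these 4 genes in non-immune classes are given below without being read as expression by those cells.

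Nfkbia and Nfkbiz were spread wider and stood above the microglia markers in the vessel wall. Nfkbia was at 52.8% of its microglial level in Endothelial-like cells (1418 ± 278 CPM, n = 8 mice), 47.0% in cluster 10, 45.0% in Pericyte-like cells (the contractile cells around capillaries) and 37.3% in Smooth muscle-like cells. Nfkbiz was at 24.3%, 22.5%, 22.0% and 26.8% in the same classes, where the marker medians were 4.01% to 5.08%. Cluster 10 is counted with the vascular classes here, since its endothelial markers summed to 31540 CPM in Pb and 30320 CPM in Ctl mice, near the Endothelial-like values. Endothelial markers summed to 19280 CPM in Pb and 19130 CPM in Ctl Pericyte-like cells and to 19660 CPM in Pb and 20110 CPM in Ctl Smooth muscle-like cells, beside 31600 CPM in Pb and 29730 CPM in Ctl Endothelial-like cells, so the levels in pericytes and smooth muscle stood beside a large endothelial signal whose part was not tested. In Oligodendrocyte-like cells Nfkbia was at 11.6% and Nfkbiz at 9.21%, and in Cajal-Retzius neuron-like cells at 6.51% and 9.45%. Tnfaip3 was at 8.52% in Endothelial-like and 9.97% in Pericyte-like cells, inside the marker range of both classes. Oligodendrocyte precursor-like cells had microglia markers at a median of 11.6%, and there Il1a stood at 19.2%, Tnf at 24.8% and Nlrp3 at 25.2%, within the marker range that reached 26.5%. Fibroblast-like cells were few, 35 in all, with 1 mouse (Pb M1) of at least 10 cells, in which Tnf stood at 34.8% and Casp4 at 35.0% of the microglial level, above a marker range of 4.67% to 29.2%, and Il1a at 20.4% and Nlrp3 at 4.74% within it.

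Across the 11 classes with at least 50 cells, the patterns of Il1a and Tnf, and those of Casp4 and Tnfaip3, were most alike among the members (Pearson r = 0.98 of log2 levels for both pairs, a description over classes that share libraries). Among the 11280 genes with at least 20 CPM in some class, those most like Il1a were Gpr183, Irf8 and Csf1r (r = 0.99 each), and those most like Tnf were Il1a, Bin2 and Irf8 (r = 0.98 each). The genes most like Il1b were Bank1, Ms4a6b and Gm43603 (r = 0.99 each). Nlrp3 was nearest to Ccl12, Ptprc and Sash3, Casp4 to Tbxas1, Cd53 and Pik3r5, and Tnfaip3 to Casp4, Cd300a and Dock8. Nfkbiz was nearest to Nfkb2, an NF-kB subunit (r = 0.99), and then to Kctd12 and Ccrl2. Nfkbia was nearest to B2m, Elf1 and Txnip (r = 0.97 to 0.98), which were the nearest of the 11280.

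Microglia-like cells were not uniform. With the members and all inflammatory lists left out of the clustering, they fell into 4 microglial clusters, numbered 4, 5, 11 and 20 in a clustering apart from that of cluster 10. The genes that define the clusters are given as a description, and levels are means ± SD over mice. Cluster 20 (139 cells), in which P2ry12 (3603 ± 448 CPM) and Cx3cr1 (2954 ± 835 CPM), genes of resting microglia, had higher means than in the other 3 clusters, held little of any member. Il1a was at 135 ± 54.7 CPM there, against 1632 ± 342 in cluster 4, 976 ± 299 in cluster 5 and 748 ± 283 in cluster 11. Nfkbia was at 539 ± 134 CPM in cluster 20, against 2739 ± 379 in cluster 4. Tnfaip3 was at 85.7 ± 36.6 CPM in cluster 20, against 497 ± 121 in cluster 4. In each of these 3 contrasts the highest mouse in cluster 20 was below the lowest mouse in cluster 4.

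Cluster 4 (567 cells) had the highest means of Il1a, Il1b (427 ± 220 CPM), Tnf (700 ± 139 CPM), Nlrp3 (294 ± 72.5 CPM) and Casp4 (249 ± 79.0 CPM). Cluster 11 (366 cells) had the highest means of Nfkbia (3292 ± 685 CPM) and Tnfaip3 (576 ± 145 CPM), while its Il1a was lower than in cluster 4 and its Nlrp3 was at 104 ± 44.4 CPM. The immediate early genes Fos (4525 ± 1202 CPM) and Jun (7141 ± 1319 CPM) and the heme oxygenase Hmox1 (1044 ± 411 CPM) were also highest in cluster 11, against 1927 ± 727, 2646 ± 640 and 316 ± 104 CPM in cluster 4. Nfkbiz was shared, with 709 ± 140 CPM in cluster 4 and 629 ± 146 CPM in cluster 11. Cluster 5 (219 cells) had a median of 3714 UMIs per cell, against 6639 in cluster 4, and its Nfkbia was at 2779 ± 1377 CPM, the widest SD of that gene among the 4 clusters. The part of dissociation in these patterns was not tested.

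**Figure D2:**
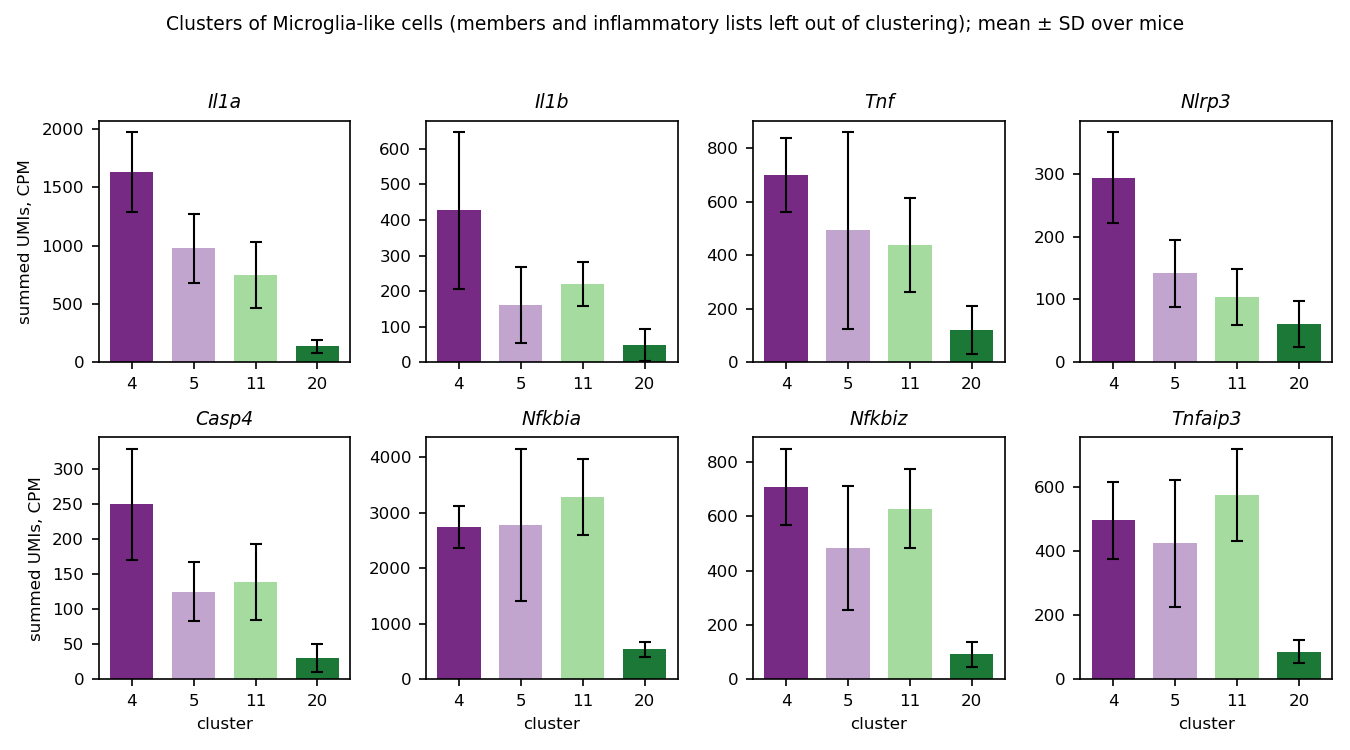
Summed UMIs of each member in CPM (bars, mean; error bars, SD over the 6 to 8 mice with at least 10 cells) in the 4 clusters of Microglia-like cells found without the members and inflammatory lists. All 8 members are lowest in cluster 20; Il1a, Il1b, Tnf, Nlrp3 and Casp4 are highest in cluster 4 and Nfkbia and Tnfaip3 in cluster 11.

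The question of the design is whether developmental lead exposure left a difference at 5 months. None of the 8 members passed the test in Microglia-like cells. By edgeR's quasi-likelihood test, 0 of 8 members had an adjusted p under 0.05, in a comparison that called 0.0% of its 7714 genes (4.33% had an unadjusted p under 0.05; limma-voom called 0 and DESeq2 6 genes, no member among them). Simulated counts had the library sizes of these mice, 1 spread for every gene (dispersion 0.05) and no sex effect. Changed genes were drawn from the better-counted genes. The test recovered 58% of those changed by 1 on the log2 scale and 100% of those changed by 2. These rates do not measure the power for the real genes, whose spread differs from gene to gene. In the real data, the 95% intervals of the 8 members all lay within 1 on the log2 scale.

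Among the ligands, Il1a had 1506, 1251, 1103 and 1090 CPM in Pb F1, F2, M1 and M2, against 986, 1615, 1067 and 820 CPM in Ctl F1, F2, M1 and M2. The groups overlapped, with the highest and the lowest value both in Ctl mice. The log2 difference of Pb over Ctl was 0.17 ± 0.15 (SE; 95% interval −0.15 to 0.48; edgeR adjusted p = 1.00). Il1b had 260, 194, 379 and 345 CPM in the Pb mice, against 346, 240, 132 and 354 CPM in the Ctl mice, a log2 difference of 0.12 ± 0.25. Tnf had 508, 493, 534 and 497 CPM in the Pb mice, against 483, 782, 552 and 400 CPM in the Ctl mice, a log2 difference of −0.10 ± 0.16. The 4 Pb values of Tnf lay inside the Ctl range, and Ctl F2 was the highest for both Il1a and Tnf.

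Of the inflammasome genes, Nlrp3 had 177, 260, 167 and 164 CPM in the Pb mice, against 220, 273, 135 and 166 CPM in the Ctl mice. Females were the higher mice in both groups, and the log2 difference of Pb over Ctl was −0.03 ± 0.16. Casp4 had 139, 219, 192 and 143 CPM in the Pb mice, against 240, 178, 141 and 230 CPM in the Ctl mice, a log2 difference of −0.18 ± 0.20 with overlapping groups.

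The feedback genes Nfkbia and Tnfaip3 had the largest positive differences of the 8 and overlapped between groups. Nfkbia had 3215, 2706, 2722 and 3066 CPM in the Pb mice, against 1995, 2900, 2647 and 2235 CPM in the Ctl mice. The lowest Pb value was below 1 of the 4 Ctl values, that of Ctl F2. The log2 difference was 0.28 ± 0.14 (95% interval −0.02 to 0.57; edgeR unadjusted p = 0.067, adjusted p = 1.00). Tnfaip3 had 666, 378, 467 and 518 CPM in the Pb mice, against 314, 497, 399 and 416 CPM in the Ctl mice, a log2 difference of 0.33 ± 0.17 (edgeR unadjusted p = 0.068, adjusted p = 1.00). Nfkbiz had 767, 594, 497 and 593 CPM in the Pb mice, against 503, 724, 515 and 644 CPM in the Ctl mice, a log2 difference of 0.04 ± 0.15.

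**Figure D3:**
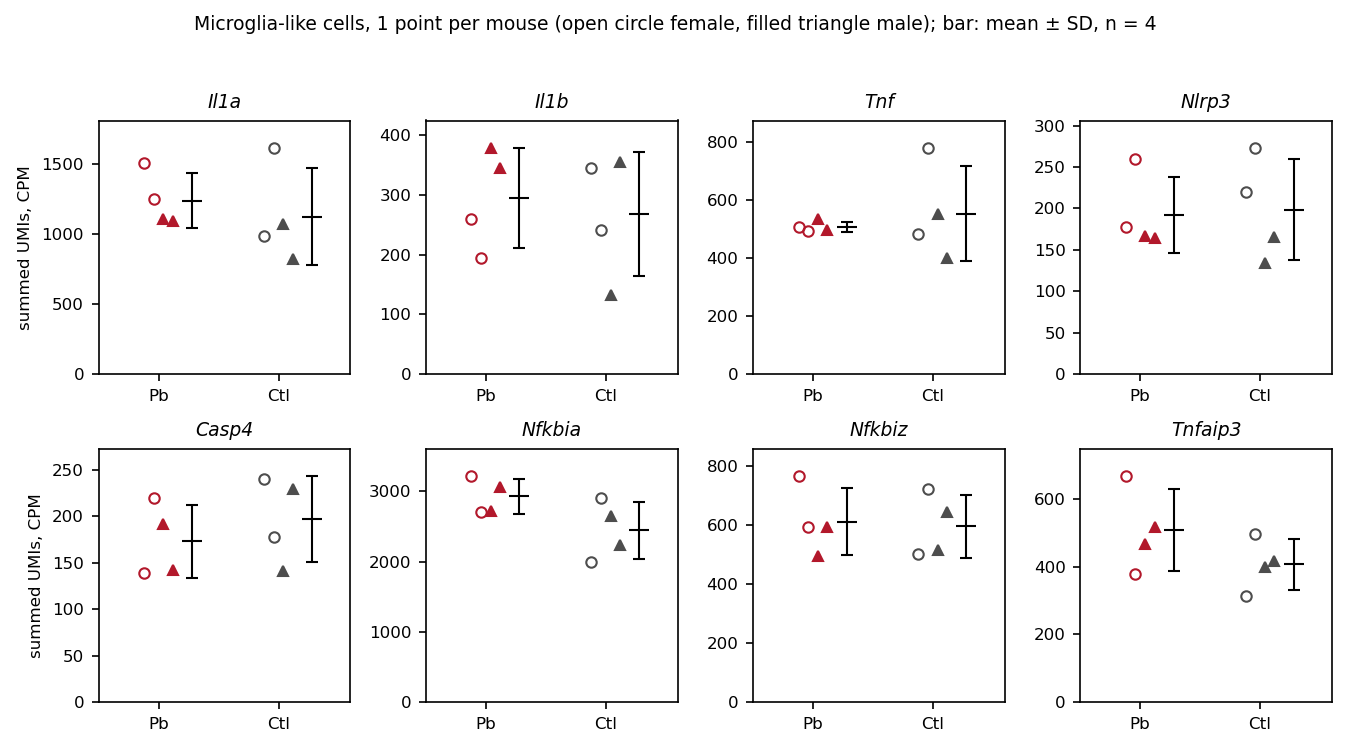
Summed UMIs of the 8 members in Microglia-like cells, in CPM, 1 point per mouse (Pb left, Ctl right; open circles female, filled triangles male) with the mean ± SD of 4 mice. The groups overlap for every member; Nfkbia in Pb mice lies between 2706 and 3215 CPM, above 3 of the 4 Ctl mice.

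Nfkbia and Tnfaip3 had the correlation r = 0.86 over the 8 mice (exact permutation p = 0.00575; Spearman's rho = 0.91), with r = 0.93 without the 2 mice farthest from the median. Over the 28 pairs of members the adjusted p was 0.16 for r and 0.13 for rho, so the pair did not pass. Il1a and Tnf had r = 0.77 (exact permutation p = 0.027, adjusted p = 0.24) and Il1a and Nfkbia r = 0.72 (exact permutation p = 0.043, adjusted p = 0.24). Casp4 went the other way, with r = −0.80 against Nfkbia (exact permutation p = 0.014, adjusted p = 0.19) and r = −0.72 against Tnfaip3 (exact permutation p = 0.043, adjusted p = 0.24). None of the 28 pairs passed adjustment. These pairs were computed over mice of both groups and sexes.

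No difference in the share of microglia with a transcript of a member passed the test. With every cell thinned to 2000 UMIs (14 Pb and 13 Ctl cells were too shallow), Il1a was seen in 66.7 ± 6.36% of cells in Pb mice and 68.1 ± 6.23% in Ctl mice (SD, n = 4 each), and Tnfaip3 in 45.2% of cells in Pb mice and 41.4% in Ctl mice. Exact permutation tests over the 70 arrangements of the mice gave p = 0.43 to 0.83 for the 8 members, adjusted p = 0.83. The smallest p this design allows is 0.029. Of the 4 microglial clusters, cluster 4 held 44.0 ± 11.6% of microglia in Pb mice and 47.9 ± 15.4% in Ctl mice (exact permutation p = 0.71), and the adjusted p over the 4 clusters was 0.91 to 0.97.

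The genes around the members were described by lists of genes with related roles. The lists were chosen with earlier results of these data known, so counts over them are a description. Of all genes tested in Microglia-like cells, 48.7% were above 0, with a median of −0.01 on the log2 scale. Among the 14 measured NF-kB-driven effectors other than members, all 14 were above 0 in Pb microglia, with a median log2 difference of 0.20, and 2 had an unadjusted p under 0.05, both higher. The interferon- and NF-kB-inducible chemokine Cxcl10 had 78.6, 90.7, 130 and 80.2 CPM in the Pb mice, against 57.2, 50.4, 22.8 and 34.4 CPM in the Ctl mice. Every Pb mouse was above every Ctl mouse, as for 1.18% of all genes tested, and the log2 difference was 1.22 ± 0.25 (edgeR unadjusted p = 0.00013, adjusted p = 0.56). With no low-count filter Cxcl10 passed (edgeR adjusted p = 2.26e-06), as did Cxcl2 (edgeR adjusted p = 4.94e-06). That unfiltered fit called 60 of 15916 genes in Microglia-like cells, where the main fit called 0. The neutrophil chemokine Cxcl2 averaged 145 ± 78.7 CPM in Pb mice and 72.5 ± 69.4 CPM in Ctl mice, with overlapping groups.

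Of 15 measured NF-kB feedback inhibitors, with 3 members among them, 7 were above and 8 below 0, with Trib1 higher (log2 difference 0.43 ± 0.18) and Socs3, a suppressor of cytokine signalling, lower (−0.28 ± 0.13) at an unadjusted p under 0.05. Of 13 inflammasome and pyroptosis genes, Casp1 was the 1 under that threshold, at 28.7 ± 3.51 CPM in Pb mice and 40.3 ± 12.1 CPM in Ctl mice, and Nek7, which binds Nlrp3, had a log2 difference of 0.26 ± 0.18. Of 15 genes of Toll-like and interleukin-1 receptor signalling, the adaptor Myd88 was at 0.41 ± 0.19 and the kinase Irak4 at −0.61 ± 0.27. Of 11 TNF family genes, the ligand Tnfsf9 was at 0.67 ± 0.25 and the inhibitor of apoptosis Birc2 at −0.45 ± 0.27. Of the 4 measured interleukin-1 family genes, Il33 was at 0.61 ± 0.27, with 27.1 to 58.7 CPM in Pb mice and 21.7 to 43.3 CPM in Ctl mice. Il33 is also among the oligodendrocyte markers used to name the classes, and the part of oligodendrocyte transcripts in its values was not tested. Of 11 NF-kB subunit and IKK genes none was under that threshold, the 2 nearest being Map3k14 (−0.33 ± 0.20) and Rel (0.19 ± 0.15). None of these had an adjusted p under 0.05.

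Dissociation genes also had unequal means in the same libraries. Of 23 measured, the heat shock genes Hspa1a (4082 ± 1845 CPM in Pb mice, 2167 ± 130 CPM in Ctl mice) and Hspa1b (840 ± 263 CPM in Pb mice, 441 ± 167 CPM in Ctl mice) had higher means in Pb microglia. The immediate early genes Fos (2143 ± 264 CPM in Pb mice, 2924 ± 587 CPM in Ctl mice), Egr1 (828 ± 43.2 CPM in Pb mice, 1068 ± 148 CPM in Ctl mice), Klf4 (799 ± 49.2 CPM in Pb mice, 1037 ± 144 CPM in Ctl mice) and Fosb had lower ones. All 6 had an unadjusted p under 0.05 and none an adjusted one. Hspa1a passed without Pb F2, the lowest mouse at 1643 CPM (log2 difference 1.20, edgeR adjusted p = 0.00881). With no low-count filter both Hspa1a and Hspa1b passed (edgeR adjusted p = 1.46e-08 and 7.85e-08), in the fit that called 60 genes where the main fit called 0. Summed over the list, the level was 26120 to 40090 CPM in Pb mice and 32000 to 37150 CPM in Ctl mice. Of 12 homeostatic microglia genes, Sall1 was at 81.7 ± 10.6 CPM in Pb mice and 108 ± 16.4 CPM in Ctl mice, and P2ry12 had a log2 difference of −0.19 ± 0.14. Summed markers of other myeloid cells in Microglia-like cells were 255 to 460 CPM in Pb mice and 220 to 340 CPM in Ctl mice for perivascular macrophages, and 298 to 454 CPM in Pb mice and 310 to 370 CPM in Ctl mice for monocytes and neutrophils. The part of these values in the differences above was not tested.

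Over all 45 tests of a member, in the 8 classes with microglia included and in all cells together, 3 had an unadjusted p under 0.05, each outside microglia, and 0 an adjusted one (edgeR, smallest adjusted p 0.969), where 0.0% of all genes were called in each class and in all cells. The share of all genes with an unadjusted p under 0.05 was 4.99% in all cells, 5.91% in Astrocyte-like, 2.0% in Cajal-Retzius neuron-like, 4.27% in Endothelial-like, 4.33% in Microglia-like, 4.2% in Oligodendrocyte-like, 4.34% in Smooth muscle-like, 4.08% in Pericyte-like and 4.33% in cluster 10. Tnfaip3 was above 0 in each of the 6 classes where it was tested, by 0.13 to 0.67 on the log2 scale. Outside microglia its level lay inside the range of the microglia markers in each of these classes. It ran from 3.90% of the microglial level in Oligodendrocyte-like to 9.97% in Pericyte-like cells. The classes came from the same 8 mice, so they are not separate results. In Endothelial-like cells it had 62.6, 42.3, 42.6 and 46.4 CPM in the Pb mice, against 16.6, 32.6, 38.6 and 29.9 CPM in the Ctl mice. The groups did not overlap, as for 1.36% of genes in that class in the same direction, and the log2 difference was 0.67 ± 0.26 (edgeR unadjusted p = 0.020, as for 4.27% of genes in either direction; adjusted p = 1.00). These values rest on 20 to 49 UMIs per Pb mouse and 5 to 18 per Ctl mouse. In cluster 10 Tnfaip3 had 49.2, 33.2, 45.9 and 46.5 CPM in the Pb mice, against 14.2, 41.5, 18.3 and 24.3 CPM in the Ctl mice, a log2 difference of 0.67 ± 0.29 (edgeR unadjusted p = 0.032, as for 4.33% of genes; adjusted p = 1.00), and Ctl F2 lay among the Pb mice. Without Ctl F2 the difference in cluster 10 was 1.22, without passing adjustment. Leaving out the highest Ctl mouse raises the difference by itself. The lowest value, 14.2 CPM in Ctl F1, came from 25 cells with 211712 UMIs of all genes, so it rests on few UMIs. Microglia markers summed to 2302 to 2970 CPM in Pb and 1839 to 3417 CPM in Ctl Endothelial-like cells, and their part in these values was not tested.

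The other feedback genes had smaller differences in the endothelium. Nfkbia there averaged 1455 ± 251 CPM in Pb mice and 1380 ± 338 CPM in Ctl mice, and in cluster 10 it averaged 1284 ± 210 CPM in Pb mice and 1242 ± 260 CPM in Ctl mice. Nfkbiz in Smooth muscle-like cells (the muscle of vessel walls) had 125, 138, 151 and 130 CPM in the Pb mice, against 139, 193 and 257 CPM in Ctl F1, M1 and M2, a log2 difference of −0.47 ± 0.22 (edgeR unadjusted p = 0.044, as for 4.34% of genes; adjusted p = 1.00). Ctl F2 had under 10 cells there and was dropped from the fit. Nfkbia in the same class had 1106, 1462, 964 and 980 CPM in the Pb mice, against 891, 914 and 693 CPM in the Ctl mice, without overlap, as for 2.82% of genes in that direction, and with a log2 difference of 0.35 ± 0.17 (edgeR unadjusted p = 0.057, adjusted p = 1.00). Nfkbiz in cluster 10 and Nfkbia in Pericyte-like cells had differences of −0.37 ± 0.19 and −0.17 ± 0.21.

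**Figure D4:**
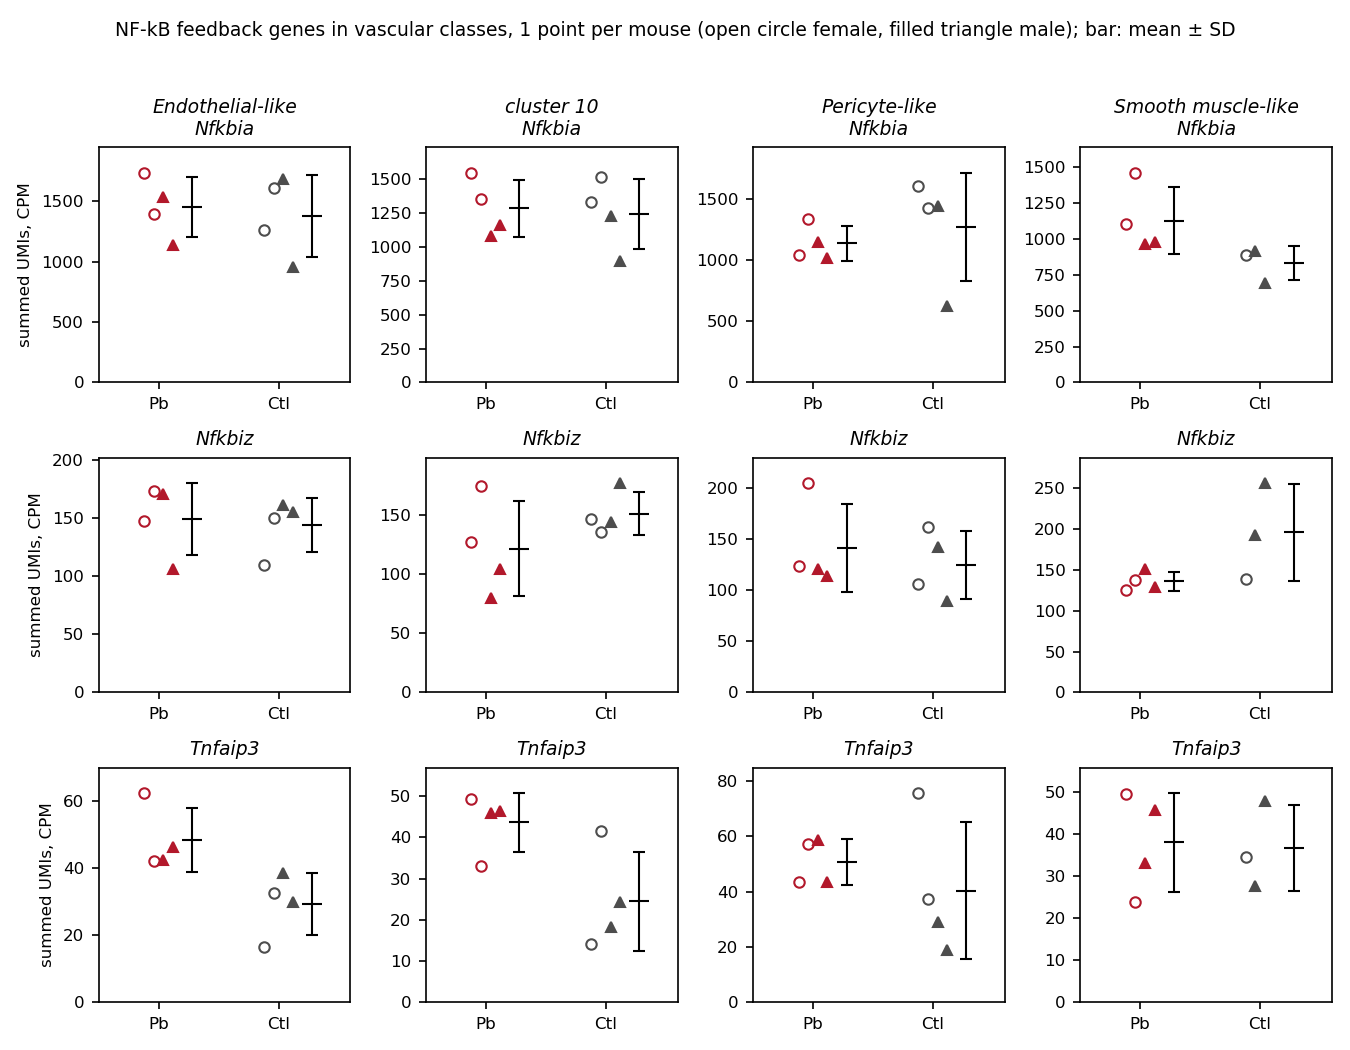
Summed UMIs of the 3 feedback genes in 4 vascular classes, in CPM, 1 point per mouse (Pb left, Ctl right; open circles female, filled triangles male) with the mean ± SD. Tnfaip3 in Endothelial-like cells is the panel in which all 4 Pb mice (42.3 to 62.6 CPM) are above all 4 Ctl mice (16.6 to 38.6 CPM); Nfkbia in Smooth muscle-like cells, with 3 Ctl mice, also has no overlap.

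Beyond the members, the list gene with the smallest p in each class was a dissociation gene in 6 of the 7 other classes. That list was also the largest, with 18 to 22 of its genes tested per class, against at most 11 of any other list. It thus had the most genes that could be picked. Egr1 in Endothelial-like cells was at 383 ± 115 CPM in Pb mice and 643 ± 61.1 CPM in Ctl mice, and Fos in cluster 10 at 3023 ± 191 CPM in Pb mice and 4046 ± 397 CPM in Ctl mice. Hspa1b was the gene in Oligodendrocyte-like (264 ± 72.5 CPM in Pb mice, 151 ± 22.6 CPM in Ctl mice) and Pericyte-like cells (2404 ± 719 CPM in Pb mice, 1588 ± 528 CPM in Ctl mice), Hspa1a in Astrocyte-like cells and Ier2 in Cajal-Retzius neuron-like cells. In Smooth muscle-like cells it was the chemokine Ccl4, at 263 ± 62.7 CPM in Pb mice and 134 ± 33.0 CPM in Ctl mice (n = 4 and 3), without overlap. None had an adjusted p under 0.05. With no low-count filter 5 of these 7 passed, Fos in cluster 10 and Ier2 being the exceptions. Those unfiltered fits called 5 genes in Astrocyte-like, 23 in Endothelial-like, 25 in Oligodendrocyte-like, 17 in Pericyte-like and 18 in Smooth muscle-like cells. The main fits called 0 in each. Hspa1a in Astrocyte-like cells had 1173, 820 and 986 CPM in Pb F1, M1 and M2, against 474, 797 and 363 CPM in Ctl F1, F2 and M2, and it also passed without Pb M1 (edgeR adjusted p = 0.0347) and without Pb M2 (edgeR adjusted p = 0.0479).

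Sex was part of the design, and Il1a and Nlrp3 had lower means in males, without passing adjustment. Of the 45 tests of males against females, 11 had an unadjusted p under 0.05, all with a lower level in males, and 0 an adjusted one (edgeR, smallest adjusted p 0.522). These 11 were not separate results. All cells together, which hold the classes, gave 3. Over the classes Il1a gave 5, Nfkbia 2 and Nlrp3 1, and Microglia-like cells gave 2, Il1a and Nlrp3. The share of all genes called was 0.0396% in all cells, 0.219% in Astrocyte-like, 0.0607% in Cajal-Retzius neuron-like, 0.0766% in Endothelial-like, 0.0648% in Microglia-like, 0.0525% in Oligodendrocyte-like, 0.107% in Smooth muscle-like, 0.107% in Pericyte-like and 0.105% in cluster 10. The share with an unadjusted p under 0.05 was 2.63% in all cells, 6.74% in Astrocyte-like, 3.16% in Cajal-Retzius neuron-like, 3.97% in Endothelial-like, 4.74% in Microglia-like, 3.8% in Oligodendrocyte-like, 7.1% in Smooth muscle-like, 4.68% in Pericyte-like and 4.92% in cluster 10. In Microglia-like cells Nlrp3 had 167, 164, 135 and 166 CPM in the males Pb M1, Pb M2, Ctl M1 and Ctl M2, against 177, 260, 220 and 273 CPM in the females Pb F1, Pb F2, Ctl F1 and Ctl F2. Every male was below every female, as for 0.946% of genes tested, and the log2 difference of male over female was −0.61 ± 0.16 (edgeR unadjusted p = 0.0013, as for 4.74% of genes under 0.05; adjusted p = 0.52). Il1a in microglia averaged 1020 ± 134 CPM in males and 1340 ± 281 CPM in females, a log2 difference of −0.46 ± 0.15 (edgeR unadjusted p = 0.0074, adjusted p = 0.80). It was below 0 in all 6 classes tested, by −0.93 to −0.46, although outside microglia its level was that of microglia markers in general. Nfkbia in cluster 10 averaged 1091 ± 145 CPM in males and 1436 ± 111 CPM in females, without overlap, as for 1.53% of genes (log2 difference −0.41 ± 0.13; edgeR unadjusted p = 0.0053, adjusted p = 0.57). Il1b alone was above 0 in males in each of its 4 classes, by 0.09 to 0.33, and Tnfaip3 in microglia was at −0.12 ± 0.17.

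The lists around the members were not alike. Of the 15 measured feedback inhibitors in microglia, 3 of them members, 14 were below 0 in males (median −0.19, against 0.00 for all genes), and of the 14 NF-kB-driven effectors 11 were below 0 (median −0.35), 7 of them with an unadjusted p under 0.05. Of the 11 TNF family genes 9 were below 0 (median −0.19), and of the 4 interleukin-1 family genes 3 (median −0.25), lists that also hold members. Toll-like and interleukin-1 receptor signalling had 9 of 15 below 0 (median −0.08) and the NF-kB subunit and IKK genes 6 of 11 (median −0.03), while of the 13 inflammasome and pyroptosis genes 8 were above 0 (median 0.04). Of the 12 homeostatic microglia genes, 10 were above 0 in males.

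These sex values stood beside the make-up of the microglia. Cluster 4, with the highest Il1a and Nlrp3, held 36.3 ± 9.04% of microglia in males and 55.5 ± 7.43% in females, and cluster 20, with the lowest, held 17.1 ± 7.27% in males and 4.78 ± 3.29% in females (SD, n = 4 each). Both had an exact permutation p of 0.029, the smallest possible here, and an adjusted p of 0.057 over the 4 clusters; this comparison was chosen after the values were seen. Within cluster 4, Nlrp3 had 250, 341, 184 and 411 CPM in the 4 males and 249, 328, 251 and 337 CPM in the 4 females, and Il1a had 1481, 2135, 1575 and 1198 CPM in the males and 1972, 1566, 1230 and 1899 CPM in the females. The sexes overlapped there for both genes. In cluster 11 Nlrp3 had 60.8, 78.8, 57.0 and 92.8 CPM in the males Pb M1, Pb M2, Ctl M1 and Ctl M2, against 100, 193, 118 and 132 CPM in the females Pb F1, Pb F2, Ctl F1 and Ctl F2, with every male below every female, as for 1.28% of the 5773 genes with at least 20 CPM there. Ctl M1 had 13 cells there and Ctl F1 11, and the nearest male and female values were 92.8 and 100 CPM. No other member had every male below every female in clusters 4, 5 or 11, where this held for 1.02%, 1.05% and 1.28% of genes. The part of cluster make-up in the sex values was not tested.

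**Figure D5:**
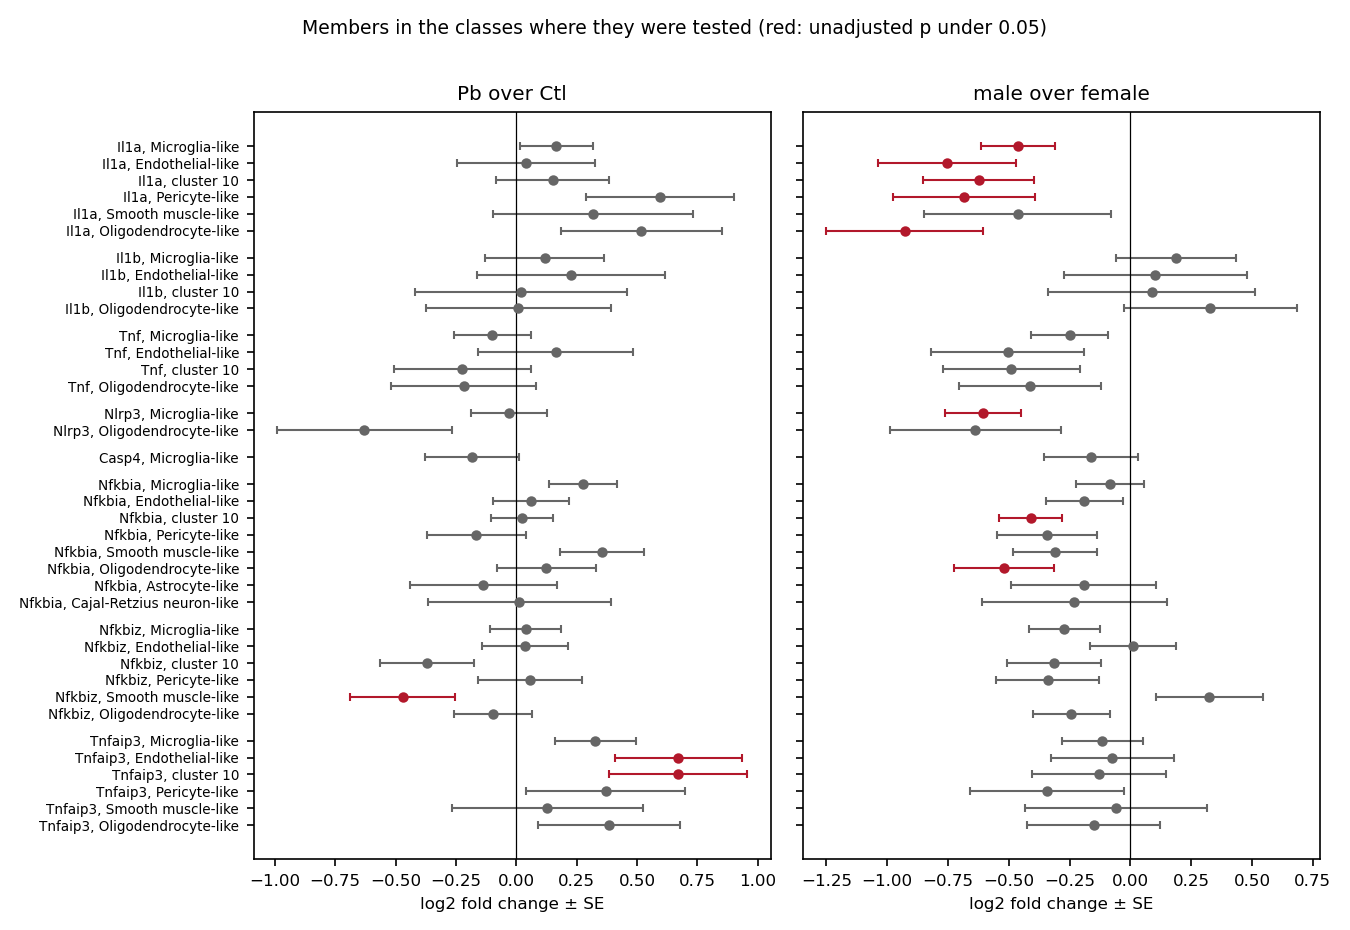
Log2 fold change ± SE of each member in each class where it was tested, Pb over Ctl (left) and male over female (right); red marks an unadjusted p under 0.05, and no value passed adjustment over all genes. Tnfaip3 lies right of 0 in all 6 classes on the left, and Il1a left of 0 in all 6 on the right. Outside microglia the levels of both lay inside the range of the microglia markers.

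Whether the sexes differed in their response to lead was tested as an interaction. In Microglia-like cells 0 of 8 members passed, as did 0.0% of all genes (edgeR, smallest unadjusted p 0.078 for Il1b, whose Pb over Ctl log2 difference was larger by 0.87 ± 0.46 in males than in females). Il1b was 379 and 345 CPM in Pb males and 132 and 354 CPM in Ctl males, against 260 and 194 CPM in Pb females and 346 and 240 CPM in Ctl females. In 3 other classes the interaction rested on a single mouse for some sex and group, since mice with under 10 cells were dropped. Ctl F1 was the only Ctl female in Smooth muscle-like cells. Pb F1 was the only Pb female and Ctl M2 the only Ctl male in Astrocyte-like cells. Ctl F2 was the only Ctl female and Pb M2 the only Pb male in Cajal-Retzius neuron-like cells. Over all classes 3 of 45 tests had an unadjusted p under 0.05: Nfkbiz in cluster 10 (−0.89), Il1a in Smooth muscle-like cells (−2.09) and Nfkbia in Astrocyte-like cells (1.26). The share of all genes under 0.05 was 2.81% in all cells, 4.73% in Astrocyte-like, 3.03% in Cajal-Retzius neuron-like, 3.09% in Endothelial-like, 3.47% in Microglia-like, 2.65% in Oligodendrocyte-like, 3.42% in Smooth muscle-like, 4.25% in Pericyte-like and 3.22% in cluster 10, and 0.0875% were called in Astrocyte-like cells and 0.0% in the others, while the smallest adjusted p of a member was 0.998.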

How the data were processed

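Hippocampal cells of 8 mice were measured by droplet single-cell RNA-seq. The authors deposited a single table of raw UMI counts for genes by cells; per the submitters' processing notes, Cell Ranger, Seurat and mm10 were used, with versions, roles and filter settings not given in the sources used here. Each cell's mouse came from its name; 0 columns were left over. The table held 17143 genes and 5258 cells with at least 999 genes and 1137 UMIs each.

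Cells over 20% mitochondrial UMIs (53) and doublets called by Scrublet (33, expected rate 0.02) could overlap and were removed, leaving 5175. Counts were scaled to 10000 per cell and clustered with scanpy 1.11.5 (2000 variable genes, 30 components, 15 neighbours, Leiden resolution 1.0). Clusters were named from marker lists: at least 3 markers detected in 10% of cells and a lead of 0.5 on the log2 scale over the next type. These naming limits, and leaving the hemoglobin-led cluster 10 unnamed, were set after the data were seen.

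UMIs were summed per mouse and class (at least 10 cells per mouse, 3 mice per group) and tested with edgeR 4.0.16 (quasi-likelihood, TMM, filterByExpr, sex as covariate) in R 4.3.3, with Benjamini-Hochberg adjustment over all genes tested in that class. An interaction term tested whether exposure differed by sex. Shares of cells were compared after random thinning to 2000 UMIs, drawn anew for each clustering, and exact permutation tests over mice were two-sided. Likeness used log2(CPM + 5) over classes of at least 50 cells. DESeq2 1.42.0, limma-voom (limma 3.58.1) and other settings were alternatives. The test was checked on simulated data. Barcodes shared between libraries were counted, and their removal was an alternative chosen after seeing the data. Wilson intervals cover counting error only.

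The members and gene lists were chosen with earlier results of these data known. Genes named beside the members were, per list, those under an unadjusted p of 0.05 in microglia or, where fewer than 2 reached it, the 2 with the smallest p, and in each other class the 1 list gene with the smallest p. The labels do not say which mice shared a litter, so p-values measure the spread between these mice as if independent.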

Additional observations from a re-analysis of the deposited data

Results flagged for a closer look

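Of 82 groups of 4 mice examined, 7 held a mouse whose gap to the nearest other mouse, over the group's range, was beyond Dixon's 95% critical value; chance gives about 1 group in 20. Ctl F2 stood apart in 3 of them. Its Il1a in all cells together was 457.9 CPM, against 192.9 to 217.8 CPM in the other Ctl mice. In Endothelial-like cells its Il1a was 124.8 CPM (others 35.36 to 43.37 CPM) and its Tnf was 65.13 CPM (others 16.60 to 24.10 CPM).

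Pb mice stood apart in 3 groups. Nlrp3 in Microglia-like cells was 259.9 CPM in Pb F2, against 164.0 to 177.2 CPM in the other Pb mice. In Pericyte-like cells Il1a was 123.7 CPM in Pb F1 (others 51.02 to 56.76 CPM) and Nfkbiz was 205.0 CPM in Pb F2 (others 114.0 to 123.7 CPM). Casp4 in all cells was 34.83 CPM in Ctl M1, against 52.01 to 54.89 CPM in the other Ctl mice. What sets these mice apart was not tested.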

How the results depend on the processing

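No member passed adjustment under any alternative run: of 754 alternative Pb over Ctl values of 45 member results, 681 kept their direction and 73 reversed it (26 results), with a smallest adjusted p of 0.298; of 435 male over female values 26 reversed, with a smallest adjusted p of 0.101; and 24 interaction values kept theirs. The cause of the reversals was not tested. Of 510 alternative values of 29 named list genes, 14 newly passed. Counts of Pb over Ctl genes called were 0 in the main result of each class. They were 19 in all cells, 6 in Microglia-like, 1 in Oligodendrocyte-like and 1 in Smooth muscle-like cells with DESeq2. With no low-count filter they were 5 (Astrocyte-like), 1 (Cajal-Retzius), 23 (Endothelial-like), 60 (Microglia-like), 25 (Oligodendrocyte-like), 17 (Pericyte-like), 18 (Smooth muscle-like) and 27 (cluster 10). With the replicate block they were 8 (Astrocyte-like) and 3 (Cajal-Retzius). Mice with the same number did not deviate together from their group means (correlations of deviations −0.47 to 0.04 in all cells, none over 0.1). These deviations kept the sex difference, and they cannot show whether mice were handled in pairs. The block is given here alone.

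Interaction calls were 4 in all cells, 1 in Astrocyte-like (main 2) and 1 in Pericyte-like cells with DESeq2, and with no filter 7, 1, 13, 51, 44, 11, 10 and 21 in Astrocyte-like, Cajal-Retzius, Endothelial-like, Microglia-like, Oligodendrocyte-like, Pericyte-like and Smooth muscle-like cells and cluster 10. Male over female calls with DESeq2 were 14, 2, 8, 12, 7 and 15 in all cells, Astrocyte-like, Endothelial-like, Microglia-like and Oligodendrocyte-like cells and cluster 10, and with limma-voom 1 in Astrocyte-like cells and 12 in cluster 10 (main 5, 5, 5, 5, 4 and 7).

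Pb over Ctl log2 values that reversed were, in all cells, Tnf 0.004 with the replicate block and Nlrp3 −0.002 without the sex covariate and −0.013 without shared barcodes. Nfkbia was 0.017 with no filter and 0.019 with the block in Astrocyte-like cells, −0.047 (DESeq2), −0.008 (limma-voom) and −0.168 (block) in Cajal-Retzius cells, and 0.004 without shared barcodes in Pericyte-like cells. In Endothelial-like cells Il1a was −0.026 without the sex covariate, Tnf −0.009 with inflammatory genes left out of clustering, and Nfkbiz −0.007 (resolution 0.5), −0.146 (inflammatory genes left out), −0.013 (doublets kept) and −0.039 (without shared barcodes). Nfkbiz in Pericyte-like cells was −0.033 (inflammatory genes left out) and −0.040 (without shared barcodes), and Il1b in cluster 10 was −0.078 (resolution 0.5) and −0.057 (doublets kept). Male over female, Nfkbiz in Endothelial-like cells was −0.005 (limma-voom) and Tnfaip3 in Smooth muscle-like cells 0.017 (DESeq2). Differences in share reversed to 0.854 (Il1a), −1.04 (Tnf) and 0.0259 (Nlrp3) percentage points with inflammatory genes left out of clustering, and to −1.92 for Nfkbia at 2 UMIs without thinning. With those genes left out, the Microglia-like class held 1291 cells and shared 1290 with the main class. Its cells were thinned in a new random draw, so the reversed shares of Il1a, Tnf and Nlrp3 stand for another draw on nearly the same cells.

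Leaving out 1 mouse at a time, Pb over Ctl calls ranged over 0 to 11 (Astrocyte-like), 0 to 1 (Endothelial-like), 0 to 5 (Microglia-like), 0 to 3 (Oligodendrocyte-like), 0 to 2 (Pericyte-like), 0 to 6 (Smooth muscle-like) and 0 to 2 (cluster 10). Male over female calls ranged over 3 to 6 (all cells), 1 to 24 (Astrocyte-like), 1 to 3 (Cajal-Retzius), 4 to 9 (Endothelial-like), 4 to 9 (Microglia-like), 4 to 9 (Oligodendrocyte-like) and 1 to 8 (Smooth muscle-like). Log2 differences of Pb over Ctl ranged over −0.19 to 0.38 (Il1b), −0.17 to 0.24 (Tnf), −0.075 to 0.23 (Nlrp3), −0.059 to 0.25 (Nfkbia) and −0.16 to 0.029 (Nfkbiz) in all cells. In Astrocyte-like cells they ranged over −0.68 to 0.57 (Nfkbia). In Cajal-Retzius neuron-like cells they ranged over −0.58 to 0.59 (Nfkbia). In Endothelial-like cells they ranged over −0.14 to 0.58 (Il1a), −0.12 to 0.38 (Il1b), −0.044 to 0.85 (Tnf), −0.073 to 0.25 (Nfkbia) and −0.067 to 0.19 (Nfkbiz). In Microglia-like cells they ranged over −0.17 to 0.33 (Il1b), −0.23 to 0.079 (Tnf), −0.13 to 0.12 (Nlrp3) and −0.053 to 0.13 (Nfkbiz). In Oligodendrocyte-like cells they ranged over −0.28 to 0.37 (Il1b), −0.39 to 0.34 (Tnf) and −0.046 to 0.39 (Nfkbia). In Pericyte-like cells they ranged over −0.39 to 0.061 (Nfkbia) and −0.12 to 0.26 (Nfkbiz). In Smooth muscle-like cells they ranged over −0.41 to 0.66 (Il1a) and −0.066 to 0.35 (Tnfaip3). In cluster 10 they ranged over −0.42 to 0.90 (Il1b), −0.34 to 0.31 (Tnf) and −0.064 to 0.12 (Nfkbia). Log2 differences of male over female ranged over −0.13 to 0.42 (Il1b) in all cells. In Astrocyte-like cells they ranged over −0.97 to 0.27 (Nfkbia). In Cajal-Retzius neuron-like cells they ranged over −0.92 to 0.25 (Nfkbia). In Endothelial-like cells they ranged over −0.098 to 0.36 (Il1b), −0.11 to 0.17 (Nfkbiz) and −0.19 to 0.19 (Tnfaip3). In Microglia-like cells they ranged over −0.17 to 0.002 (Nfkbia) and −0.25 to 0.081 (Tnfaip3). In Oligodendrocyte-like cells they ranged over −0.29 to 0.13 (Tnfaip3). In Smooth muscle-like cells they ranged over −0.23 to 0.11 (Tnfaip3). In cluster 10 they ranged over −0.32 to 0.72 (Il1b) and −0.31 to 0.18 (Tnfaip3).

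Shares ranged, in percentage points, over −3.35 to 1.55 (Il1a), −2.04 to 2.39 (Il1b), −0.307 to 7.01 (Tnf), −5.07 to 1.64 (Nlrp3), −4.48 to 0.282 (Casp4), −4.90 to 0.339 (Nfkbiz) and −1.14 to 6.99 (Tnfaip3). At resolution 0.5, Pericyte-like and Smooth muscle-like cells had no matching class, and Smooth muscle-like cells had too few mice under the other clusterings. Members with few UMIs outside microglia limit what differences could be seen there.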
